A study of Mus musculus with 3 samples.

Results

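The 37 genes described here encode the steps that carry glucose to pyruvate and lactate: glucose transporters, the enzymes of glycolysis, lactate dehydrogenase, the monocarboxylate transporters that move lactate and pyruvate across the plasma membrane, the mitochondrial pyruvate carrier, and pyruvate dehydrogenase with its kinases. They were taken by name, without regard to their values, from the 24071 genes measured in 3 single-cell RNA libraries of mouse retina at postnatal day 26, and all 37 were present in the tables. One library came from wild-type (WT) mice, one from Tspan12 knockout (KO) mice, and one from Tspan12 KO mice injected intraperitoneally with F4L5.13, an antibody that joins FZD4 to LRP5, at 10 mg/kg on days 6, 9 and 12 and then at 4 mg/kg every 3 days (treated). TSPAN12 is a co-receptor through which Norrin acts on retinal vessels, and mice without it do not form the deep capillary layers properly. The submitters gave the same strain name, Tspan12tm1.2Hjug, to all 3 samples, the WT included, and the number of animals behind a library was not given in the sources used here. Retinas had been dissociated with papain and depleted of photoreceptors and dying cells with beads against CD73 and Annexin V.

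Glycolysis splits glucose into pyruvate in the cytosol. Lactate dehydrogenase then interconverts pyruvate and lactate, while pyruvate that enters mitochondria is oxidised by pyruvate dehydrogenase, which the kinases PDK1 to PDK4 switch off. The retina is known for making much lactate even when oxygen is present. Most of its glycolysis is assigned to photoreceptors, and Müller glia, the radial glia that span the retina, take up glucose and exchange lactate with their neighbours. Many of these genes are also textbook targets of the hypoxia-inducible factors.

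With 1 library in each group there was no replicate and no test between groups. Levels are in CPM, the reads of a gene scaled by all reads of its cell class in a library, and ratios of CPM are given with 95% intervals that cover counting error only, not the spread between animals or dissociations. A gene is called higher or lower when its ratio was at least 1.5 in that direction and the higher library held at least 30 molecule equivalents, that is, reads divided by the estimated number of reads per molecule. A gene that could not reach 30 in either library was left untested. The tags came from the 3′ ends of transcripts, so a level does not scale with transcript length, but capture differs between transcripts and levels of different genes are comparable only roughly.

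After filtering, 5785 (WT), 9357 (KO) and 8215 (treated) cells remained, with medians of 14245, 6919 and 7769 reads. Pairs of libraries shared between 15 and 31 cell barcodes. Clusters were made without the 37 genes and were named from markers, so each class name means cells with that type's markers ("Müller-like", "rod-like" and so on) and is written without the suffix. Müller glia comprised 1285, 814 and 796 cells with median reads of 18421, 24786 and 21045. They came from 3 clusters that the libraries filled unequally. Cluster 2 held 1261 WT, 49 KO and 614 treated cells, cluster 7 held 21, 700 and 86, and cluster 30 held 3, 65 and 96. Values are therefore also given for cluster 2 alone. Clusters were set by expression, and cluster 7 had Apln and Ndufa4l2 among its leading genes. Cluster 2 alone thus keeps only the KO cells that grouped with most WT cells, and its ratios are not free of that choice. Clusters 4 and 16, which carried Müller markers together with many rod transcripts (420, 560 and 470 cells), were kept apart. Rods numbered 216, 3787 and 3481, and their median depth was 13550 reads in WT against 3099 and 3037 in the other libraries. Only 1 endothelial cell was found in the KO library. Some clusters stayed unnamed and are in no class. Clusters 10, 19 and 26 carried ON and OFF bipolar markers together. They held 203, 191 and 86 WT, 221, 58 and 51 KO, and 181, 98 and 75 treated cells. Clusters 22 and 44 carried markers of 2 types, and clusters 9 and 40 were shallow with no marker among their leading genes. Cluster 9 held 4 WT, 454 KO and 249 treated cells, and cluster 22 held 148, 52 and 70. Tspan12 itself was read in Müller glia at 55.5, 37.5 and 33.4 CPM in WT, KO and treated, but the 3′ tag may lie outside the deleted part, so this does not check the genotype.

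In Müller glia many enzymes of glycolysis were higher in KO than in WT, and many were lower in treated than in KO. The 37 genes together took 0.826% of WT Müller reads, 1.20% of KO and 0.743% of treated ones. Per cell, the median share was 0.815% in WT, with a 5th to 95th percentile range of 0.573% to 1.16%. It was 1.19% in KO (0.806% to 1.60%) and 0.734% in treated (0.415% to 1.07%), so the cells of the 3 libraries overlapped although their medians stood apart. In KO against WT, 31 of the 37 genes could be tested and 15 were higher, while 7.08% of all 12459 genes tested were. Mpc1 alone was lower, against 12.2% of all genes. The members' median log2 ratio was 0.55, and that of all genes was −0.08.

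In treated against KO, 15 of 30 tested members were lower and 1, Slc16a8, was higher, beside 7.02% lower and 8.66% higher among all 11445 genes tested. The median log2 ratio was −0.59 for members and 0.04 for all genes. Against WT, 2 of 32 tested members were higher in treated (3.21% of all genes) and 3 were lower (5.06%), with a median of −0.11 for members and −0.02 for all 12310 genes. The KO library stands in both of the first comparisons, so a high or low value in it moves both in opposite directions, and they are not independent. In cluster 2 alone, where the KO library had 49 cells, 8 members were higher and 1 lower in KO than in WT (median 0.38). Of those 8, Pfkfb2 (3.74 CPM in WT, 4.62 in KO) passed only because its KO value was set to a floor of 3 molecule equivalents. Between treated and KO in that cluster, 7 were lower and 0 higher (median −0.32). The shares of all genes in cluster 2 are not given, so these counts have no background beside them. In cluster 2 the KO against WT log2 ratio fell short of the fold for Hk1 (0.46), Pfkl (0.56), Aldoa (0.55), Tpi1 (0.53), Pgk1 (0.38), Eno2 (0.23) and Ldha (0.53). Slc2a3 (0.07) and Pfkfb3 (0.43) fell short too, with their KO values set to that floor. The KO level of Slc2a3 in that cluster was 2.31 CPM, below the 6.32 CPM of WT. The treated against KO log2 ratio fell short for Gpi1 (−0.54), Pkm (−0.56) and Ldha (−0.50), and Slc2a3, Pfkfb3, Pdk1, Pdk3 and Slc16a3 had too few reads in that comparison.

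**Figure D1:**
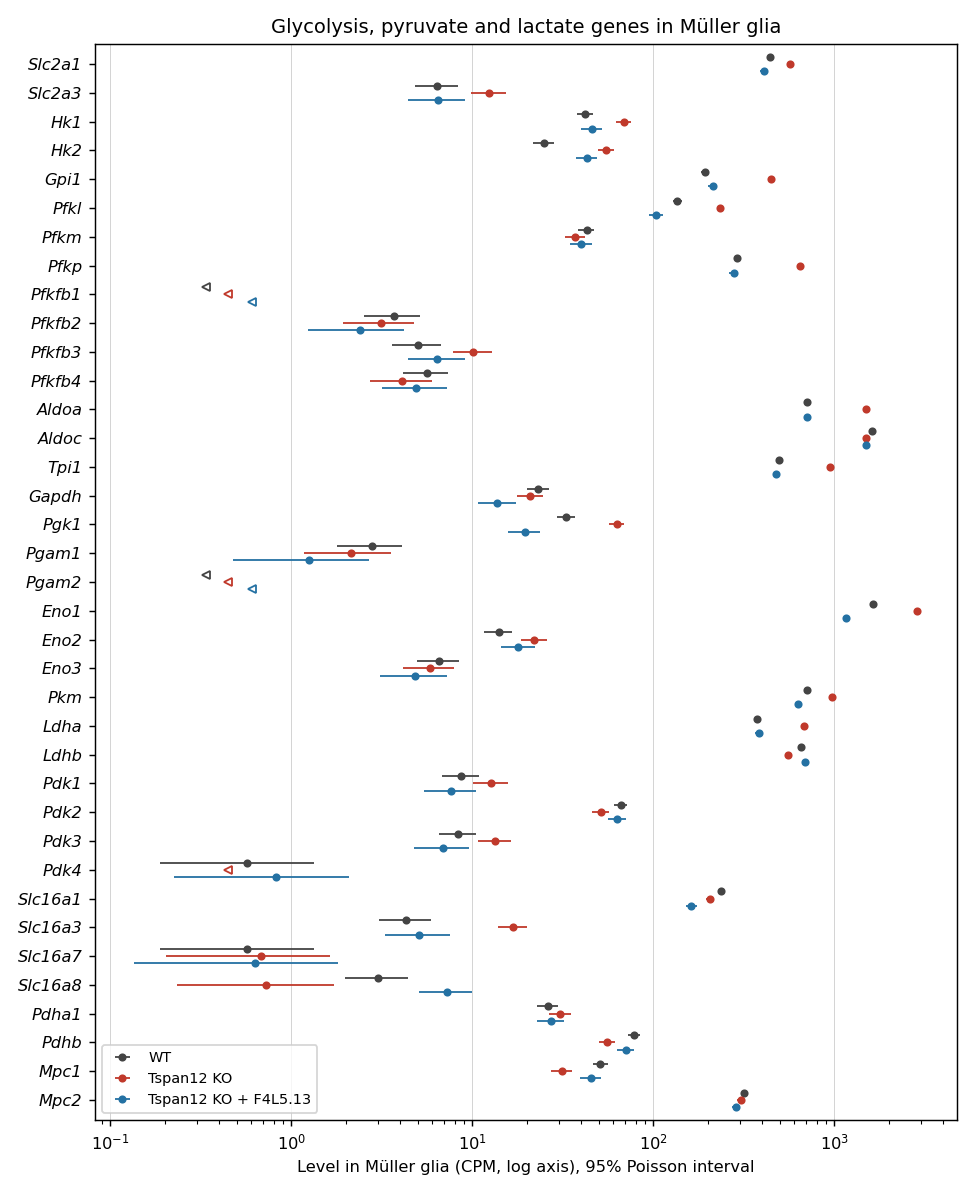
Level of each of the 37 genes in Müller glia, in CPM on a log axis, for the WT, KO and treated libraries (1 library each); bars are 95% Poisson intervals for counting error only and open left-pointing triangles are levels below the limit of 3 molecule equivalents. Eno1 (1156 CPM or more) and Aldoc (1497 CPM or more) are the highest in every library, and KO lies to the right of both other libraries for most enzymes from Gpi1 to Ldha.

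Other transcripts moved with the Müller libraries. The summed level of 12 rod markers, none of them at 0, was 1183, 1636 and 1488 CPM in WT, KO and treated, against 120389, 77047 and 82301 CPM in rods. The 8 pigment epithelium markers, none at 0, summed to 112, 60.0 and 310 CPM, and the red cell markers to 475, 1.19 and 1083 CPM. Their part in the members' ratios was not tested.

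The promoters of 6 members are printed here for reference, because the members that moved together include known targets of the hypoxia-inducible factors, whose core binding letters are ACGTG and GCGTG. Each line gives 250 bases upstream of the gene's most upstream start in RefSeq (GRCm38.p6), 5′ to 3′ on the gene's strand, with matches to either motif on either strand in capitals. Capitals that run on cover overlapping matches. Hk2, Pgk1, Eno1 and Ldha are genes with a match that were higher in KO Müller glia, whereas the promoters of Hk1, Gpi1, Aldoa, Tpi1 and Eno2, which were higher too, held 0 matches. Ldhb is the paralog of Ldha that was not, and Slc16a1 the lactate transporter that was lower in KO in rods, cones and amacrine cells. No exon of the mouse annotation (GENCODE M21) lies in these windows.
Hk2, chr6:82774455-82774704, minus strand: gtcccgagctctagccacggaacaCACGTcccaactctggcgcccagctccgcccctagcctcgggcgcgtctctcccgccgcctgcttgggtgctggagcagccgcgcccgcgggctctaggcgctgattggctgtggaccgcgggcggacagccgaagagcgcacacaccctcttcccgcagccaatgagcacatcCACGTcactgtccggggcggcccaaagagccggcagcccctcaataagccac
Pgk1, chrX:106186850-106187099, plus strand: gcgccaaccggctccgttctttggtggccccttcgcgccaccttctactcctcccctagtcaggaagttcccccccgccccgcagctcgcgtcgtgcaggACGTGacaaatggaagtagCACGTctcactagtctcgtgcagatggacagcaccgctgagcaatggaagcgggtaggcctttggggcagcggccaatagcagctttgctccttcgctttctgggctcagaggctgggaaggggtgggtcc
Eno1, chr4:150236458-150236707, plus strand: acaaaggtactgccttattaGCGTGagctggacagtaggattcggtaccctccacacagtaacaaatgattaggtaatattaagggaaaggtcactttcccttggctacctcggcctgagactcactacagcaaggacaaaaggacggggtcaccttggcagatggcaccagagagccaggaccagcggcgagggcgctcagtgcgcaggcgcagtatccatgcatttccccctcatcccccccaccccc
Ldha, chr7:46845554-46845803, plus strand: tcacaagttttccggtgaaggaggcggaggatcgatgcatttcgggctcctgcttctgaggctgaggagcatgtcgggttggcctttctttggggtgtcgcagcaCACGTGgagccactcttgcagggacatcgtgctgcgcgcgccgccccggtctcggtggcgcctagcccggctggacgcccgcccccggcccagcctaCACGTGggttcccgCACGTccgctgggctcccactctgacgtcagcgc
Ldhb, chr6:142507958-142508207, minus strand: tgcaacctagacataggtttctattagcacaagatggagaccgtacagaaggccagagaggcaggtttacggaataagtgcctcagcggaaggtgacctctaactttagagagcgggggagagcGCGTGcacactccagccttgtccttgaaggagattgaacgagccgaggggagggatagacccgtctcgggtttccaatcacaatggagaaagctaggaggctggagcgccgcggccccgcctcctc
Slc16a1, chr3:104638414-104638663, plus strand: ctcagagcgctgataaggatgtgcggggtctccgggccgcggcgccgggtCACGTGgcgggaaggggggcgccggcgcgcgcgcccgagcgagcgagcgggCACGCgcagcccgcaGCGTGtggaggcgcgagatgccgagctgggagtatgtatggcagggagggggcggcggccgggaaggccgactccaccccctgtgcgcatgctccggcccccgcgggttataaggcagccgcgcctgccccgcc

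Of these 6, Ldha held 5 matches, Slc16a1 held 4, Hk2 and Pgk1 held 2 each, and Eno1 and Ldhb held 1 each. The palindrome CACGTG, which holds ACGTG on both strands, counts as a match on each. A promoter was found for 35 of the 37 members, not for Slc2a3 and Slc16a7. Among 11 promoters of the 12 members that were higher in KO than in WT and lower in treated than in KO in Müller glia, 5 held ACGTG (45.5%), 4 held GCGTG (36.4%) and 8 held either (72.7%). Among 24 promoters of the other 25 members the shares were 29.2%, 62.5% and 75%, and among all 27025 promoters they were 16.5%, 28.3% and 38.6%. A match describes letters only and is neither a bound site nor a cause.

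Glucose enters through GLUT1 (Slc2a1), the transporter of endothelium and glia, and GLUT3 (Slc2a3), the neuronal form. Slc2a1 stood at 444 CPM in WT Müller glia, 568 in KO and 407 in treated. Its ratio of 1.28 (1.22 to 1.34) in KO against WT did not reach the fold. Slc2a3 was low, at 6.40, 12.3 and 6.47 CPM. It was higher in KO than in WT by 1.92 (1.35 to 2.74) and lower in treated than in KO, with a ratio of 0.526 (0.339 to 0.80), though in cluster 2 it was at 6.32 CPM in WT, 2.31 in KO and 6.82 in treated.

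Hexokinase traps glucose by phosphorylation. Hk1, the housekeeping form, was at 41.9, 68.5 and 45.8 CPM in WT, KO and treated. KO stood above WT by 1.63 (1.42 to 1.88), while the treated against KO ratio of 0.668 fell just short of the fold. Hk2, the inducible form that binds mitochondria, was at 24.8, 55.0 and 42.9 CPM. KO exceeded WT by 2.22 (1.87 to 2.63). Treated lay between the others and was 1.73 (1.42 to 2.10) times WT, with reads in 262, 333 and 220 cells.

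The next steps isomerise glucose 6-phosphate (Gpi1), add the second phosphate (phosphofructokinase, Pfkl, Pfkm and Pfkp) and split the sugar (aldolase). Gpi1 rested at 193 CPM in WT and 213 in treated but 447 in KO, a KO against WT ratio of 2.32 (2.18 to 2.46) and a treated against KO ratio of 0.476 (0.443 to 0.511). Pfkp, the most read of the 3 phosphofructokinases in Müller glia, was at 291, 648 and 277 CPM, 2.23 (2.12 to 2.34) times WT in KO, and in treated 0.428 (0.403 to 0.455) of KO. The liver form Pfkl was at 136, 235 and 104 CPM, with ratios of 1.73 (1.60 to 1.86) and 0.442 (0.399 to 0.488). The muscle form Pfkm was not called, at 42.7, 37.0 and 39.8 CPM. For Gpi1, Pfkl and Pfkp the KO value stood alone and the WT and treated values lay close together.

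The aldolases parted. Aldoa, the ubiquitous form, was at 709 CPM in WT, 1499 in KO and 708 in treated, a KO against WT ratio of 2.12 (2.05 to 2.18) and a treated against KO ratio of 0.472 (0.454 to 0.490). Aldoc, the glial and neuronal form, was at 1613, 1504 and 1497 CPM, with a KO against WT ratio of 0.933 (0.909 to 0.957). Aldoc therefore made up 69.5% (68.8% to 70.1%) of aldolase reads in WT Müller glia, 50.1% (49.4% to 50.8%) in KO and 67.9% (67.0% to 68.8%) in treated. In cluster 2 alone Aldoa was at 703, 1026 and 672 CPM, and in the KO cells of cluster 7 at 1539.7.

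Fructose bisphosphate of the regulatory kind, the activator of phosphofructokinase, is made and removed by the 4 bifunctional Pfkfb enzymes. All were low in Müller glia. Pfkfb3, which favours synthesis, was at 4.98 CPM in WT, 10.1 in KO and 6.41 in treated, 2.02 (1.36 to 3.03) times WT in KO and 0.637 (0.404 to 0.984) of KO in treated. Pfkfb2 was at 3.67, 3.11 and 2.39 CPM and was lower in treated than in WT, with a ratio of 0.651 whose interval of 0.304 to 1.30 includes 1. Pfkfb4 was at 5.59, 4.10 and 4.90 CPM without a call. Pfkfb1, the liver form, was below the detection limit in all 3 libraries.

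Triose phosphate isomerase (Tpi1) was read at 494 CPM in WT, 949.7 in KO and 476 in treated, a ratio of 1.92 (1.85 to 2.0) in KO against WT and of 0.501 (0.478 to 0.526) in treated against KO. Phosphoglycerate kinase (Pgk1), the first ATP-forming step, was at 33.0, 62.7 and 19.5 CPM. KO was 1.90 (1.63 to 2.22) times WT, and treated was 3.22-fold lower than KO and also below WT, at 0.591 (0.465 to 0.746) of it. Gapdh, the enzyme between them, was at 23.0, 20.9 and 13.8 CPM, and treated was at 0.660 (0.487 to 0.887) of KO and 0.597 (0.447 to 0.789) of WT. Phosphoglycerate mutase was barely read and untested. Pgam1 stood at 2.77, 2.13 and 1.26 CPM. The muscle form Pgam2 was at 0 CPM in WT, which allows up to 0.338, and under the limit in the others. Gapdh, Pgk1 and Pgam1 have processed pseudogenes in the mouse genome. How reads shared with such copies were counted was not given in the sources used here, so the levels of these 3 genes are uncertain.

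Enolase 1 (Eno1) was the most read of the 37 genes in WT and KO Müller glia, and Müller glia were the class where it stood highest in WT. It was at 1633 CPM in WT, 2868 in KO and 1156 in treated. KO was 1.76 (1.72 to 1.79) times WT, and treated was 2.48-fold lower than KO. Eno1b, a near-identical copy, was at 267, 297 and 146 CPM, so reads of Eno1 may be divided between them. The neuronal enolase Eno2 was at 13.9, 22.0 and 18.0 CPM, higher in KO than in WT by 1.57 (1.23 to 2.02), and the muscle form Eno3, at 6.53, 5.81 and 4.84 CPM, was not called. Pyruvate kinase (Pkm), whose M1 and M2 splice forms share the 3′ end and could not be separated, was at 708, 975 and 633 CPM. It was not called in KO against WT (1.38, interval 1.33 to 1.43) and was lower in treated than in KO, at 0.649 (0.622 to 0.678).

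**Figure D2:**
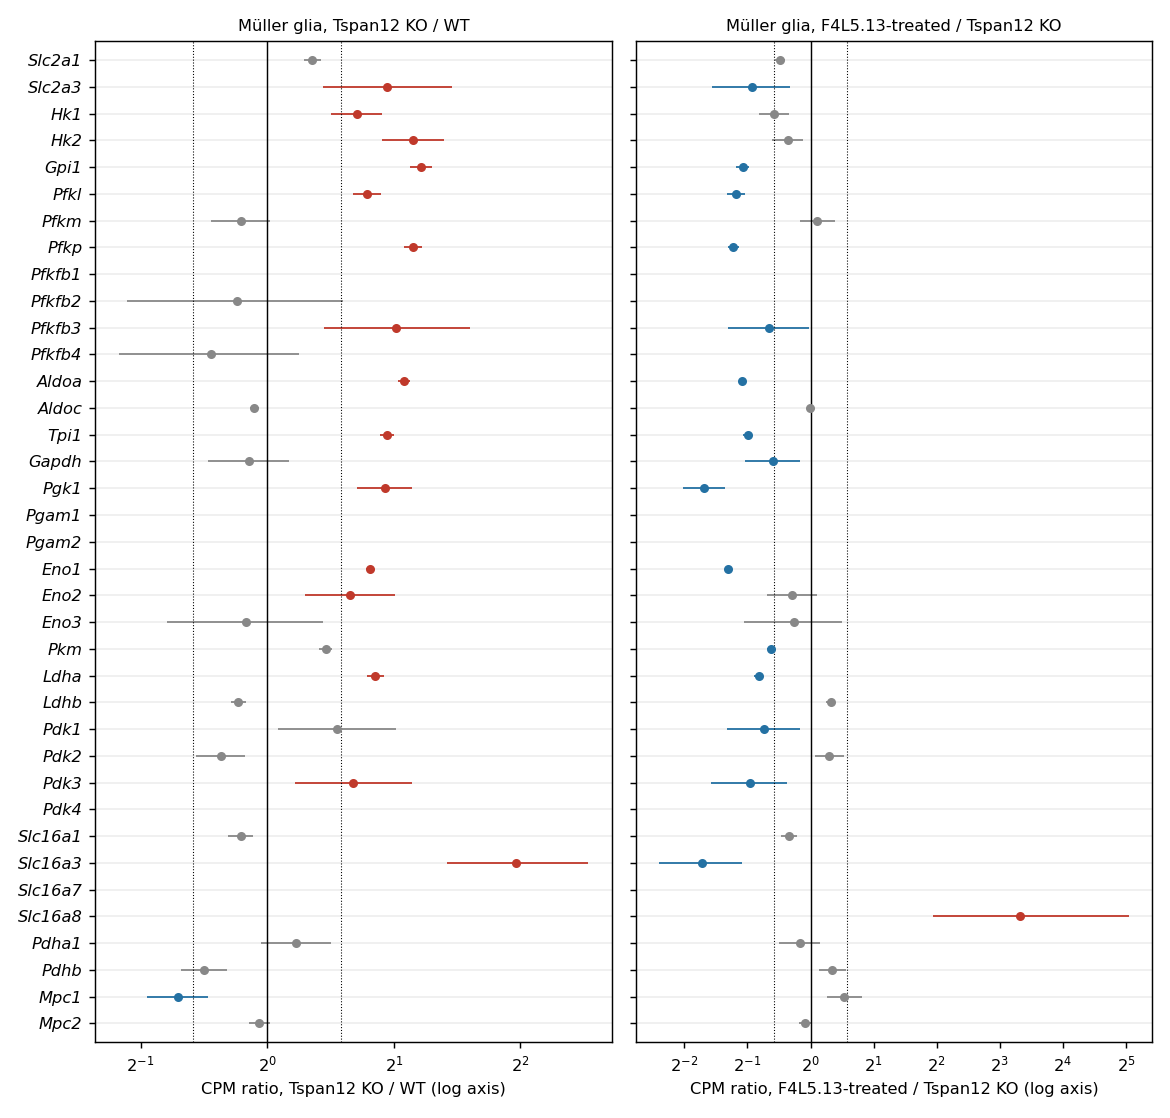
Ratio of CPM in Müller glia for each tested member, KO against WT and treated against KO, on a log axis with 95% counting intervals; dotted lines mark ratios of 1.5 up and down, red points are higher, blue lower and grey neither. Slc16a3 has the largest KO against WT ratio (3.90), and Pgk1 and Slc16a3 the smallest treated against KO ratios (0.311 and 0.305).

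Of the lactate dehydrogenase subunits, A (Ldha) is associated with lactate formation and B (Ldhb) with lactate use. Ldha was at 375 CPM in WT Müller glia, 678 in KO and 383 in treated, 1.81 (1.73 to 1.89) times WT in KO and 0.565 (0.535 to 0.596) of KO in treated. Ldhb was at 652, 556 and 692 CPM and was not called. Its KO against WT ratio was 0.853 (0.818 to 0.889), and the interval of its treated against KO ratio was 1.19 to 1.30. Ldha made up 36.5% (35.5% to 37.5%) of WT lactate dehydrogenase reads, 54.9% (53.9% to 56.0%) of those in KO and 35.6% (34.3% to 36.9%) of treated ones. In cluster 2 alone Ldha was at 373 CPM in WT and 538 in KO, and Ldhb at 654 and 592, so there B was the larger part in KO too and Ldha was not called. The promoters printed for the pair held 5 matches for Ldha, with palindromes counted on each strand, and 1 for Ldhb. Eno1, which was higher in KO, also held 1, and whether matches bear on levels was not tested.

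Lactate leaves and enters through the monocarboxylate transporters. MCT1 (Slc16a1) was the main one read in Müller glia, at 238, 206 and 162 CPM, and was not called. MCT4 (Slc16a3), the exporter of strongly glycolytic cells, was at 4.28, 16.7 and 5.09 CPM, with reads in 48, 137 and 39 cells. Its KO against WT ratio of 3.90 (2.68 to 5.80) was the largest of the members, and treated was at 0.305 (0.190 to 0.472) of KO. Slc16a3 still made up only 7.47% (6.19% to 8.92%) of MCT reads in KO, against 1.74% (1.24% to 2.38%) in WT and 2.91% (1.89% to 4.25%) in treated. MCT2 (Slc16a7) was at 0.571, 0.675 and 0.628 CPM and untested.

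MCT3 (Slc16a8), the transporter of pigment epithelium, was at 3.02, 0.727 and 7.23 CPM. It was called higher in treated than in KO by 9.94 (3.85 to 33.0) and than in WT by 2.39 (1.41 to 4.11). These values rest on very few cells, since all 74 WT reads came from 1 cell, the 14 KO reads from 2 and the 115 treated reads from 4. In clusters 2 and 7 Slc16a8 was at 0, and in cluster 30 it was at 62.0 CPM in KO and 302 in treated. The pigment epithelium markers moved the same way, as given above.

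Pyruvate crosses into mitochondria through a carrier before it is oxidised. Mpc1, a subunit of the mitochondrial pyruvate carrier, was at 50.9 CPM in WT, 31.2 in KO and 45.2 in treated and was lower in KO than in WT, with a ratio of 0.613 (0.518 to 0.724). Its partner Mpc2 was at 318, 304 and 287 CPM. The pyruvate dehydrogenase subunits Pdha1 (26, 30.5 and 27 CPM) and Pdhb (78.5, 55.5 and 70.4 CPM) were not called. Among the kinases, Pdk2, the main one in Müller glia, was at 66.2, 51.2 and 63.0 CPM without a call, and Pdk4 was at 0.571, 0.104 and 0.817 CPM and untested. Pdk1, a hypoxia-responsive kinase, was at 8.65, 12.7 and 7.60 CPM, a ratio of 1.47 (1.06 to 2.02) in KO against WT and of 0.60 (0.398 to 0.891) in treated against KO. Pdk3 was at 8.32, 13.3 and 6.85 CPM, 1.60 (1.17 to 2.21) times WT in KO and 0.513 (0.335 to 0.770) of KO in treated. Pdk2 made up 79.0% of kinase reads in WT, 66.2% in KO and 80.5% in treated.

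Summed by role, the 2 glucose transporters reached 450 CPM in WT, 580.4 in KO and 414 in treated. The 8 genes from hexokinase to aldolase summed to 3051, 4493 and 2926 CPM in WT, KO and treated, and the 9 from triose isomerase to pyruvate kinase to 2914, 4906 and 2322. The 2 lactate dehydrogenase genes summed to 1027, 1234 and 1075 CPM and the 4 Pfkfb genes to 14.2, 17.5 and 13.8. In each of these sums KO stood above both other libraries. The 4 pyruvate entry and dehydrogenase genes summed to 473, 422 and 429 CPM, the 4 kinases to 83.7, 77.4 and 78.2, and the 4 MCT genes to 246, 224 and 175. These 3 sums stood lower in KO than in WT.

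Müller glia with rod transcripts (clusters 4 and 16) had a summed rod marker level of 36880, 21580 and 27149 CPM in WT, KO and treated. In KO against WT, 9 of 31 tested members were higher and 0 lower, beside 8.66% and 5.34% of all genes, with a median log2 ratio of 0.19 against 0.03. Between treated and KO, 7 were lower and 0 higher, beside 6.42% and 5.71%, with medians of −0.26 and 0.00. The 7 were Gpi1, Pfkl, Pfkp, Tpi1, Pgk1, Eno1 and Slc16a3. Hk2, which rods carry at a high level, was at 169, 174 and 160 CPM here and was not called.

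The rest of the carbohydrate pathway in Müller glia was read from lists chosen with earlier results known, against the Müller backgrounds given above. In KO against WT, 0 of 7 pentose phosphate genes were called (median 0.17), 0 of 7 tested NADH shuttle genes (median −0.09), and 1 of 16 tricarboxylic acid cycle genes, Fh1, lower with a ratio of 0.653 (0.528 to 0.805), with a median of −0.21. Of 12 glycogen genes 2 were higher and 2 lower (median 0.08). Stbd1, a glycogen-binding protein, was at 2.41 CPM in WT and 6.33 in KO, and muscle glycogen phosphorylase (Pygm) at 23.4 and 12.9. Of the 6 other pyruvate dehydrogenase complex genes, Pdp1 was higher and Pdp2 lower. Pdp1 was at 3.22 CPM in WT and 5.35 in KO, a ratio of 1.66 whose interval of 0.987 to 2.81 includes 1. Pdp2 was at 38.4 and 24.2 CPM, a ratio of 0.631 (0.520 to 0.763). Both are phosphatases that switch the complex on.

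With treatment, against KO, the pentose phosphate list again had 0 of 7 called (median −0.20), and the tricarboxylic acid cycle had 1 gene of 16 higher, Sdhd (1.65). Of 12 glycogen genes 1 was higher and 3 lower (median −0.15). Pdp2 was the gene called among 5 of the remaining complex genes, higher by 1.95 (1.59 to 2.39).

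Among 13 tested other hexose genes and transporter partners, 4 were higher and 2 lower in KO than in WT (median −0.03). Malic enzyme 1 (Me1), which makes pyruvate and NADPH, was at 6.97 CPM in WT, 41.2 in KO and 12.7 in treated, a KO against WT ratio of 5.91 (4.47 to 7.92). Slc16a6, another member of the MCT family, was at 4.57, 15.4 and 6.60 CPM. Basigin (Bsg), the chaperone that brings MCT1 and MCT4 to the membrane, was at 4282 CPM in WT, 7701 in KO and 3598 in treated, with ratios of 1.80 (1.77 to 1.82) and 0.467 (0.459 to 0.475). Of these 3, Bsg was by far the most abundant, and all 3 were highest in KO.

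Reporters of hypoxia outside glycolysis were read beside the members. Of 7 tested, 5 were higher in KO than in WT (median 1.79) and 5 lower in treated than in KO (median −1.46). Adm, encoding adrenomedullin, was at 1.67 CPM in WT, 161 in KO and 9.55 in treated. Ndufa4l2, a mitochondrial protein induced by low oxygen, was at 85.5, 1879.9 and 155 CPM. Against WT, 3 of 6 tested reporters were higher in treated (median 0.41). In the 49 KO cells of cluster 2, Ndufa4l2 was at 586 CPM, between the 84.3 CPM of WT in that cluster and the 1980.3 of the KO cells of cluster 7. Whether the reporters and the members share a cause was not tested.

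Across the WT classes with at least 30 cells, paralogs of one step had their highest levels in different classes. Endothelial cells had the highest Slc2a1, at 1683 CPM, and the highest Slc16a1, at 1152 CPM, and Slc2a1 made up 99.8% of their glucose transporter reads. Amacrine cells had the highest Slc2a3, at 68.3 CPM, with Slc2a3 at 51.0% of the pair. Rods had the highest Hk1 (345 CPM), Pfkfb2 (41.7), Pkm (3848), Ldha (1599.7) and Pdk3 (30.4), and cones the highest Hk2 (561), Eno3 (25.3) and Pfkfb1 (1.45). Photoreceptors thus had the highest hexokinase, pyruvate kinase and lactate dehydrogenase A levels among the classes measured.

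Horizontal cells (38 in WT) led for Gpi1 (1559 CPM), Pfkl (251), Pfkfb3 (229), Aldoa (4020.0), Gapdh (52.9), Pgk1 (106), Eno2 (409) and Mpc1 (223). ON cone bipolar cells led for Pfkp (568), Tpi1 (2003), Pgam1 (13.7) and Slc16a8 (6.25), and OFF cone bipolar cells for Slc16a3 (122), Slc16a7 (120.5), Pdk1 (64.6), Pdhb (149), Pfkfb4 (16.2) and Pgam2 (7.18). Amacrine cells led for Pfkm (119), Ldhb (734) and Mpc2 (489). Astrocytes (48 cells) led for Aldoc (6947), Pdha1 (162) and Pdk4 (1.76), and Müller glia for Eno1 (1633) and Pdk2 (66.2). No single class led for the whole pathway.

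**Figure D3:**
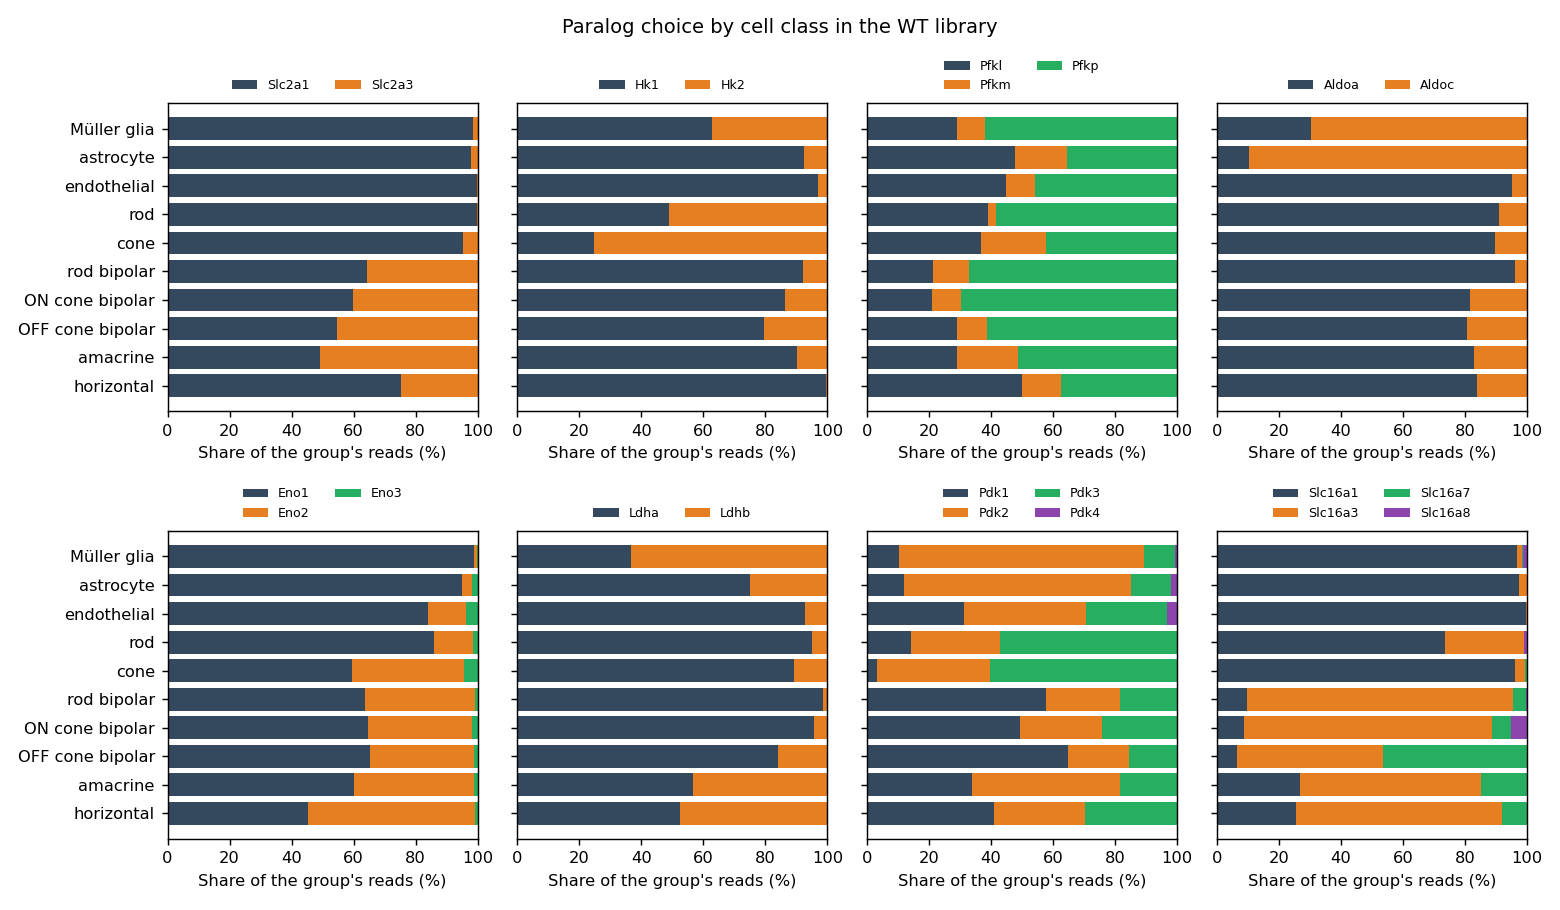
Share of reads taken by each paralog in 8 groups of related genes across 10 cell classes of the WT library, as stacked bars from 0 to 100%. Hk2 is the larger part of hexokinase reads in cones (75.4%) and rods (51.2%), Aldoc of aldolase reads in astrocytes (89.5%) and Müller glia (69.5%), and Ldhb of lactate dehydrogenase reads in Müller glia.

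Shares within a pair set the classes apart. Hk2 made up 75.4% of hexokinase reads in WT cones and 51.2% in rods, but 37.2% (33.3% to 41.2%) in Müller glia, 20.5% in OFF cone bipolar, 13.7% in ON cone bipolar and 7.79% (5.75% to 10.3%) in rod bipolar cells. Ldha made up 98.5% of lactate dehydrogenase reads in rod bipolar cells and 94.9% in rods, 56.8% in amacrine and 52.4% in horizontal cells. Müller glia, at 36.5%, had Ldhb as the larger part. Pfkfb3 made up 99.6% of the Pfkfb reads of horizontal cells, and Pfkfb2 made up 92.3% in rods and 84.8% in cones. Among the MCT genes, Slc16a1 took 99.7% in endothelial cells, Slc16a3 took 85.6% in rod bipolar cells and Slc16a7 took 46.4% (41.1% to 51.8%) in OFF cone bipolar cells.

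Several of these shares differed between libraries. The Hk2 share of rod bipolar cells stood at 7.79% in the WT library, at 26.9% (23.8% to 30.2%) in KO and at 8.35% (6.32% to 10.8%) with treatment. The Hk2 share was 13.7%, 33.2% and 14.1% in ON cone bipolar and 20.5%, 37.6% and 17.7% in OFF cone bipolar cells. In cones, where Hk2 was already the main form, it was 75.4%, 66.0% and 73.2%. Aldoc in rod bipolar cells was 3.66%, 13.0% and 5.16% of aldolase reads, the opposite order to Müller glia, where it was lowest in KO. Slc16a7 in OFF cone bipolar cells was 46.4%, 24.4% (19.3% to 30.1%) and 57.4% (50.6% to 64.0%) of MCT reads. The libraries filled the clusters pooled as OFF cone bipolar cells and those pooled as cones unequally, as given below.

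The comparison between libraries was then made in the 6 neuronal classes with at least 50 cells in each. The members' share of reads was higher in KO than in both other libraries in rod bipolar cells (0.787%, 1.39% and 0.814% in WT, KO and treated), ON cone bipolar cells (1.21%, 1.79% and 1.18%), OFF cone bipolar cells (1.21%, 1.54% and 1.11%) and rods (1.26%, 1.58% and 1.15%). Cones differed less between libraries, at 0.929%, 0.938% and 0.804%, as did amacrine cells, at 1.23%, 1.33% and 1.24%. Horizontal cells stood at 1.45%, 1.89% and 1.52%, with 38 cells in WT.

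**Figure D4:**
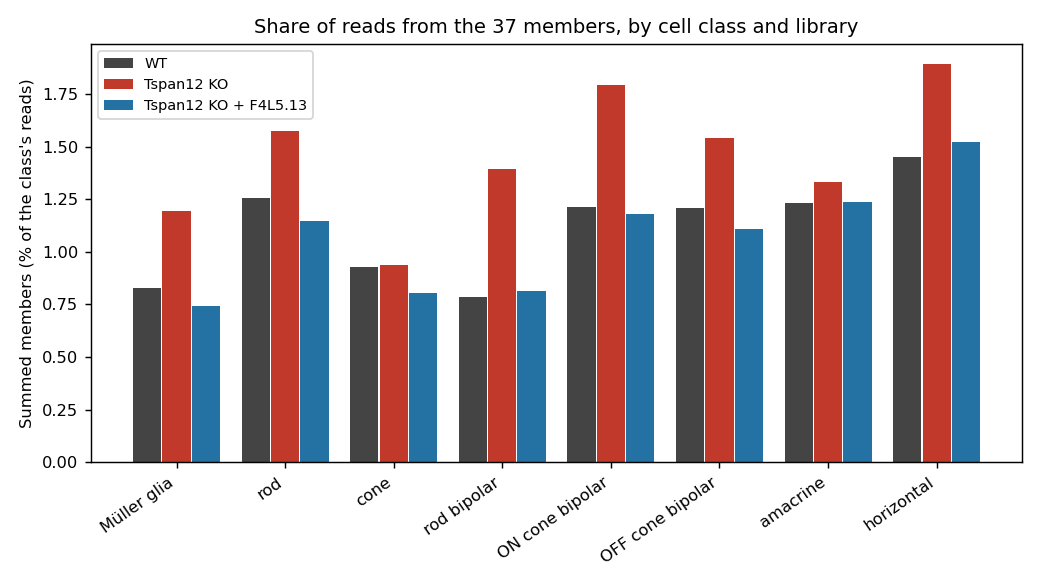
Percentage of all reads of a class that came from the 37 members, for 8 classes and the WT, KO and treated libraries (1 library each). KO is the highest of the 3 bars in every class drawn, by most in rod bipolar cells (1.39% against 0.787% and 0.814%) and by least in cones (0.938% against 0.929% and 0.804%).

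Rod bipolar cells, the ON neurons that carry rod signals, showed the widest shift of the neurons. In KO against WT, 16 of 26 tested members were higher and 0 lower, beside 5.64% and 6.04% of all genes, with a median log2 ratio of 0.85 against −0.01. Pfkfb3 went from 5.1 CPM in WT to 36.3 in KO, a ratio of 7.08 (3.99 to 13.4). Hk2 went from 16.2 to 104, a ratio of 6.41 (4.63 to 9.04), and Aldoc from 71.8 to 411, a ratio of 5.73 (4.91 to 6.72). All 3 are inducible or minor forms in these cells.

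Between treated and KO, 15 of 25 rod bipolar members were lower and 0 higher, beside 4.94% and 7.06%, with medians of −0.80 and 0.04. Hk2 was at 19.6 CPM in treated, 0.189 (0.137 to 0.256) of KO, Aldoc at 99.6, or 0.242 (0.210 to 0.278), and Pgk1 at 32.3 against 85.0, or 0.379 (0.290 to 0.494). Ldha was at 443, 1114 and 502 CPM in WT, KO and treated.

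ON cone bipolar cells had 14 of 34 tested members higher and 1 lower in KO than in WT, beside 5.2% and 6.78% of all genes, with medians of 0.31 and −0.02. Hk2 went from 33.7 to 171 CPM (5.08, interval 4.29 to 6.04), Pfkfb3 from 14.5 to 35.4 (2.44, 1.81 to 3.30) and Slc16a3 from 97.1 to 222 (2.28, 2.03 to 2.56). Slc16a8, the gene that was lower, went from 6.25 to 3.14 CPM, with an interval of 0.219 to 1.05 that includes 1. In treated against KO, 12 of 33 were lower and 1, Slc16a8 again, higher, beside 5.7% and 6.57%, with medians of −0.45 and 0.02. The lowest ratios there were those of Hk2 (0.218, 0.183 to 0.26), Eno1 (0.380, 0.356 to 0.406) and Pgk1 (0.390, 0.325 to 0.466).

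OFF cone bipolar cells had 9 of 25 higher and 1 lower in KO, beside 8.08% and 9.98%, with medians of 0.50 and −0.03. Hk2 went from 48.1 to 164 CPM (3.41, 2.53 to 4.65), Slc2a3 from 54.0 to 117 (2.17, 1.59 to 2.96) and Slc2a1 from 65.2 to 135 (2.07, 1.56 to 2.76), so both glucose transporters were higher. Slc16a7, the high-affinity lactate and pyruvate importer of neurons, was lower, at 72.2 CPM in KO against 120.5 in WT (0.599, 0.441 to 0.806). This class pools clusters that the libraries filled unequally, and Slc16a7 was among the genes that most set cluster 17 apart. Cluster 17 held 156 of 346 WT, 83 of 245 KO and 142 of 231 treated cells, and cluster 32 held 20, 118 and 9. Cluster 26 (86 WT, 51 KO and 75 treated cells) also had Slc16a7 among its leading genes, but it stayed unnamed and is not in this class. The part of this mix, and of the cells left out, in the Slc16a7 values was not tested. In treated against KO, 13 of 24 were lower and 1 higher, beside 10.8% and 9.18%, with medians of −0.64 and −0.01. Slc16a7 was the one higher, at 166 CPM in treated (2.30, 1.69 to 3.16). The lowest were Hk2 (0.246, 0.161 to 0.366), Pdk1 (0.321, 0.196 to 0.508) and Pgk1 (0.409, 0.258 to 0.630).

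**Figure D5:**
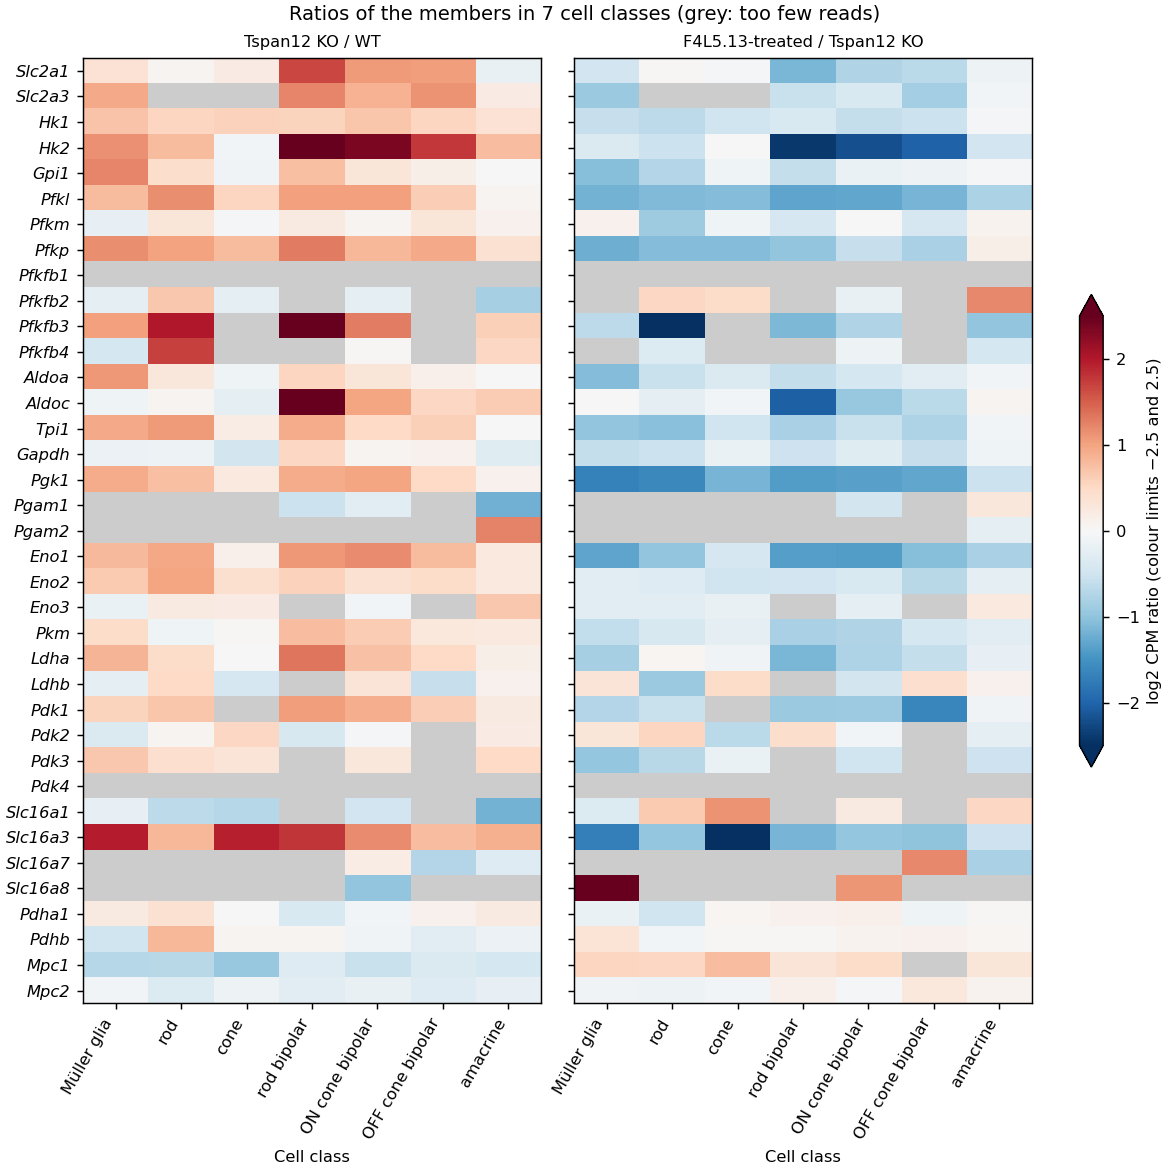
Log2 ratio of CPM for each member in 7 cell classes, KO against WT on one panel and treated against KO on the other, with colour limits of ±2.5 and grey where the reads were too few. The bipolar columns are red for Hk2, Eno1 and Slc16a3 in KO against WT and blue in treated against KO, and the cone and amacrine columns are paler for Hk2 and Eno1.

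In rods the comparison with WT needs care, because 42.3% of all genes tested were higher in KO (3.39% were lower) and the WT rods were fewer and deeper. With 13 of 30 members higher and 2 lower, and a median of 0.47 against 0.44 for all genes, the members' count was near the background. Pfkl went from 127 to 283 CPM (2.23, 1.89 to 2.65), Pfkfb4 from 2.32 to 7.88 (3.40, 1.06 to 17.9) and Pfkfb3 from 1.16 to 9.59 (8.28, 1.79 to 128). The WT values of Pfkfb4 and Pfkfb3, and the treated value of Pfkfb3 given below, were under the floor of 3 molecule equivalents. Their ratios are printed without that floor. The 2 that were lower were Slc16a1, from 133 to 84.6 CPM (0.638, 0.531 to 0.770), and Mpc1, from 16.8 to 10.3 (0.615, 0.362 to 1.08). Treated against KO, between libraries of similar rod depth, had 12 of 30 members lower and 1 higher, beside 9.65% and 3.31%, with medians of −0.54 and −0.04. Pfkfb3 was at 0.60 CPM in treated (0.0626 of KO, 0.0100 to 0.213), Pgk1 at 24.1 (0.327, 0.26 to 0.410) and Pfkl at 132 (0.467, 0.422 to 0.516), while Slc16a1 was higher, at 133 CPM (1.57, 1.38 to 1.79).

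Cones had few members past the fold. The class pools cluster 6, led by Opn1mw, and cluster 8, with Opn1sw as its first leading gene, which the libraries filled unequally. Cluster 6 held 323 WT, 182 KO and 337 treated cells, and cluster 8 held 341, 289 and 167. The part of this mix in the cone values was not tested. In KO against WT, 2 of 27 were higher and 2 lower. Of all 8548 genes tested 617 were higher and 343 lower, together 11.2%. The medians were 0.02 and 0.07. Slc16a3 went from 5.09 to 19.5 CPM (3.84, 2.05 to 7.53) and Pfkp from 75.6 to 130 (1.73, 1.43 to 2.08), while Mpc1 went from 22.8 to 11.9 (0.522, 0.306 to 0.857) and Slc16a1 from 143 to 86.8 (0.609, 0.504 to 0.732). For treated against KO, 5 of 27 were lower and 2 higher. Of all 7629 genes tested 696 were lower and 391 higher, together 14.2%. The medians were −0.17 and −0.04. Slc16a1 was at 189 CPM in treated (2.18, 1.80 to 2.64) and Mpc1 at 20.2 (1.70, 0.980 to 3.02). Slc16a3 was at 1.76 (0.0901, 0.0203 to 0.269), Pgk1 at 20.5 (0.449, 0.30 to 0.663) and Pfkl at 45.2 (0.473, 0.362 to 0.615). In both photoreceptor classes, Slc16a1 and Mpc1 were the members called lower in KO than in WT, though the rod interval of Mpc1 includes 1. Neither was particular to photoreceptors, since Mpc1 was also called lower in Müller glia and Slc16a1 in amacrine cells.

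Amacrine cells, the inhibitory interneurons, numbered 115 in WT, 1189 in KO and 133 in treated, so their WT and treated levels rest on few cells. In KO against WT, 6 of 34 members were higher and 3 lower, beside 10.9% and 9.25%, with medians of 0.18 and 0.01. Pgam2 went from 6.35 to 15.1 CPM (2.38, 0.933 to 8.31), Slc16a3 from 52.9 to 97.6 (1.84, 1.32 to 2.65) and Hk2 from 13.8 to 23.6 (1.72, 0.895 to 3.75). Pgam1 (0.434, 0.205 to 1.04), Slc16a1 (0.443, 0.259 to 0.805) and Pfkfb2 (0.565, 0.273 to 1.33) were lower, and several of these intervals include 1. In treated against KO, 4 of 34 were lower and 1 higher, beside 11.4% and 8.57%, with medians of −0.08 and 0.00. Pfkfb2 was higher (2.30, 1.17 to 4.23). Pfkfb3 (0.504, 0.223 to 0.992), Slc16a7 (0.568, 0.179 to 1.39) and Eno1 (0.572, 0.50 to 0.653) had the lowest ratios.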

How the data were processed

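Per the labels' protocols, single-cell 3′ libraries were made with the 10x Chromium v3 kit, 1 per group. The submitters' processing notes name mm10 and Partek 9.0 without their roles. The tables as deposited by the authors hold estimated counts per gene and barcode, read as such from their values. Of nonzero values, 2.39%, 2.33% and 2.34% (WT, KO, treated) were fractional by over 0.001, and rounding set 3.39%, 3.33% and 3.37% to 0. No collapsing of reads into molecules was given in the sources used here. The values were taken as reads, against the plan, and divided by 2.77, 2.87 and 3.20 for every interval and minimum.

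Barcodes needed 500 genes and at most 20% mitochondrial reads. Likely doublets (296, 882 and 702) were left out by ranking against simulated ones, to 0.8% per 1000 barcodes. Cells were clustered (2000 variable genes without the 37 members, 40 components, 15 neighbours, Leiden resolution 1, leidenalg 0.10.2, scikit-learn 1.9.0). A cluster was named from at least 3 markers that were 2-fold above other clusters and in 20% of its cells. Finer naming rules were set with the clusters in view, but before member values were read. Müller clusters whose summed rod markers exceeded 20% of the highest cluster's were kept apart.

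Reads were summed per class and library and scaled to CPM. Ratios have exact conditional binomial, levels exact Poisson and shares exact Clopper-Pearson intervals (95%). For calls and log2 ratios, a gene under 3 molecule equivalents was set to that floor. The other ratios and their intervals are given without the floor. The calculations were tested on simulated data. Every member is named at least once. Those past the fold in Müller glia are given in full, other classes by the 3 largest and 3 smallest ratios past it, and other lists by up to 3 genes. Of the genes called in these lists, 1 is not reported here. The members, lists and rules were chosen with earlier results of these data known.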

Additional observations from a re-analysis of the deposited data

Results flagged for a closer look

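In 3 cases a member passed the fold in opposite directions in different cell classes under the same comparison. The difference between the classes was not tested in any of them. Pfkfb2 in KO against WT had a ratio of 1.59 in rods and 0.565 in amacrine cells. Slc16a7 in treated against KO had a ratio of 2.30 in OFF cone bipolar cells and 0.568 in amacrine cells. The libraries filled the clusters of OFF cone bipolar cells and those of amacrine cells unequally, as given above. Pfkfb2 in treated against WT had a ratio of 2.29 in rods and 0.651 in Müller glia, where the gene stood under 4 CPM in every library. Amacrine values rest on 115 WT and 133 treated cells, and WT rods on 216 cells.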

How the results depend on the processing

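No paired analysis was possible because each group has 1 library and no test was made. In Müller glia the members' median log2 ratio ranged from 0.36 to 0.67 in KO against WT, from −0.65 to −0.32 in treated against KO and from −0.14 to −0.05 in treated against WT over the alternatives. A fold of 2 left 6 members higher and 0 lower in KO against WT, 7 lower in treated against KO, and 1 higher and 0 lower in treated against WT. The planned less strict fold gave 4 lower in KO against WT, 3 higher in treated against KO, and 4 higher and 7 lower in treated against WT. Without the minimum of 30 molecule equivalents, 2 were lower in KO against WT and 2 higher in treated against KO. With classes set by marker levels of each cell, 2 were lower in KO against WT, and 0 were higher in treated against KO and in treated against WT. Cells with at least 1000 genes and at most 10% mitochondrial reads gave 0 higher in treated against KO and 1 in treated against WT, and with doublets kept 4 were higher in treated against WT. Alternatives chosen after seeing the data were cluster 2 alone (8 higher in KO against WT, 7 lower and 0 higher in treated against KO, 1 higher in treated against WT), cells with at least 10000 reads (0 and 1 higher in the last comparisons), and adding clusters 4 and 16, which turned the Pfkfb2 log2 ratio in treated against WT from −0.62 to 0.48. In cluster 2 Pfkfb2 counted as higher in KO against WT only through the floor. At a fold of 2 the members past it in KO against WT were 5 in rods, 1 in cones, 6 in ON cone bipolar, 3 in OFF cone bipolar and 3 in amacrine cells, and in treated against KO 5, 9, 5, 6 and 1 in rods, rod bipolar, ON cone bipolar, OFF cone bipolar and amacrine cells. A mean over amacrine cells in place of the sum gave 5 in KO against WT and 11 in treated against KO. No share of all genes is given beside the counts in this section, so they cannot be set against a background. In rods 42.3% of all genes tested were already higher in KO than in WT at the fold of 1.5. Pfkfb3 in treated against KO passed the fold in 6 of 10 alternatives, and Gapdh and Pkm in 7 of 11. Intervals cover counting error only, and without replicate libraries the spread between animals is not known.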
